A study of Mus musculus with 17 samples.

Results

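Mouse embryonic fibroblasts (MEF) of a line carrying tetracycline-controlled Oct4 were compared, before induction, with wild-type MEF. The transgenic group was the TO_MEF_0 array, taken at 0 h. The wild-type group was Ctrl_MEF_0, untreated, with Ctrl_MEF_24, treated for 24 h, as a second wild-type array. Total RNA was labelled with biotin and each sample was read on 1 Illumina BeadArray. The features compared were the 11699 probes, of 25697 on the array, with a detection p under 0.01 on any of the 3 arrays. The choice used detection only and not the direction of any difference. They carried symbols of 8159 genes. The series holds 17 arrays in all, which also cover embryonic stem cells (ESC), bone marrow cells (BMC) and neural stem cells (NSC), and its title places it in the early stage of reprogramming by Oct4. The labels mark the 0 h transgenic array as treated, and for Ctrl_MEF_24 a source field and the title give different times. The inducing compound, the mouse strain, the position and copy number of the transgene, and the number of embryos or cultures behind each array are not given in the labels. Each condition was read once, so an error or p given here measures the spread between arrays and times and not between cultures.

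Oct4, encoded by Pou5f1, is a POU-domain transcription factor of the early embryo and the germ line, and somatic cells normally keep the gene silent. In a tetracycline-controlled line the factor is placed under a promoter that an added compound switches, and such promoters can differ in how silent they are without it. MEF are primary cultures of embryonic mesenchyme. They are mixed, can hold tissue macrophages and other cells of the embryo, and change with passage as cell cycle inhibitors such as the products of the Cdkn2a and Cdkn2b genes accumulate.

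Each log2 signal below is a background-corrected, quantile-normalised level, and a difference is TO_MEF_0 minus the mean of the wild-type arrays on that scale. The TO_MEF_0 array detected 10231 probes, against 10792 on Ctrl_MEF_0 and 11082 on Ctrl_MEF_24. Its mean raw intensity was 407.9, against 635.8 and 612.5. The other TO_MEF arrays were dim as well (382.5 to 437.4), while the arrays of every other line lay between 548.2 and 671.8. Line, culture and this dimness therefore cannot be told apart. Of the 11699 probes, 9683 were detected on all 3 arrays, 263 on TO_MEF_0 only, and 755 on both wild-type arrays but not on TO_MEF_0. Probes detected on 1 side entered through that side, so counts over them are set partly by this filter.

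Pou5f1 was already present in the transgenic fibroblasts before induction, as both of its probes showed. The first probe read 8.44 on TO_MEF_0, against 5.02 on Ctrl_MEF_0 and 4.82 on Ctrl_MEF_24, where it was not well above background. The other read 8.49, against 4.43 and 4.44, also below background in wild type. The difference was 3.52 ± 0.37 (SE, limma adjusted p = 0.000832) by the first probe, at least 8.09-fold, and 4.05 ± 0.34 (adjusted p = 3e-04) by the other, at least 8.33-fold. A fold given as at least N sets the brighter side against the lowest signal among detected probes of the dimmer arrays, or the probe's own signal there if higher. Such bounds hold for this background correction only: the first Pou5f1 probe, with a bound of 3.02 on the log2 scale, differed by 1.75 without background correction, 2.57 with an offset of 50 and 4.65 with the authors' values, and was called in each.

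The 0 h level of Pou5f1 was far under that of pluripotent or induced cells. The first probe stood at 12.96 in ESC and at 14.04, 14.35 and 14.50 in TO_MEF at 6, 12 and 24 h. The raw intensities of that probe were 296 on TO_MEF_0, against 140 and 126 on the wild-type arrays, and 9126 in ESC. The transgenic NSC line did not share the 0 h signal: TO_NSC_0 read 5.08, against 4.99 and 4.59 in wild-type NSC (difference 0.29, adjusted p = 0.86). TO_BMC_0 read 5.06. The difference in MEF exceeded that in NSC by 3.24 ± 0.53 (adjusted p = 0.00989). Whether the signal came from the transgene or from the endogenous gene was not tested, since positions of the probes were not used here.

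Markers of the pluripotent state other than Pou5f1 were mostly dark on all 3 arrays. Of 27 on the array, 20 were detected on none of the 3, among them Nanog, Sox2, Esrrb and Zfp42, core regulators or markers of ESC. Of the 7 measured, 1 was called higher and 2 lower, against 0.778% and 2.44% of all probes. Dnmt3l, the cofactor of de novo DNA methyltransferases, read 5.95 on TO_MEF_0, against 4.55 and 4.69 below background in wild type (adjusted p = 0.0405, at least 1.43-fold), while ESC read 13.50. Its raw intensities were alike, at 120 on TO_MEF_0, against 119 and 120, so the difference arose in background correction and normalisation. Dnmt3l was not called without background correction or with an offset of 50. Klf4, a zinc-finger factor that fibroblasts also express, read 7.72, against 9.35 and 9.67 (difference -1.79, adjusted p = 0.0339). Lefty1, a secreted inhibitor of Nodal, read 5.75, against 7.13 and 7.20 (difference -1.42, adjusted p = 0.0137). None of these 3 calls held with either wild-type array left out (adjusted p 0.0722 to 0.188).

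Over all 11699 probes, 376 were called at an adjusted p under 0.05, which is 3.21% of those tested. Higher calls in TO_MEF_0 numbered 91 (0.778%) and lower calls 285 (2.44%). An unadjusted p under 0.05 was reached by 2097 probes, 855 higher and 1242 lower. By size alone, 310 probes (2.65%) lay at least 2-fold above both wild-type arrays and 527 (4.5%) at least 2-fold below both, whereas the wild-type arrays differed 2-fold from each other in 37 probes. The SD of the differences was 0.63 against Ctrl_MEF_0 and 0.627 against Ctrl_MEF_24, and 0.276 between the wild-type arrays. The median difference was 0.0107 and the smallest called difference 0.796 in size. The count depended on the wild-type pair: 95 probes were called without Ctrl_MEF_0 and 76 without Ctrl_MEF_24, and 566 were called without TO_NSC_6. Median scaling in place of quantile normalisation moved the median of all probes to -0.271 and called 55 higher and 718 lower.

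**Figure D1:**
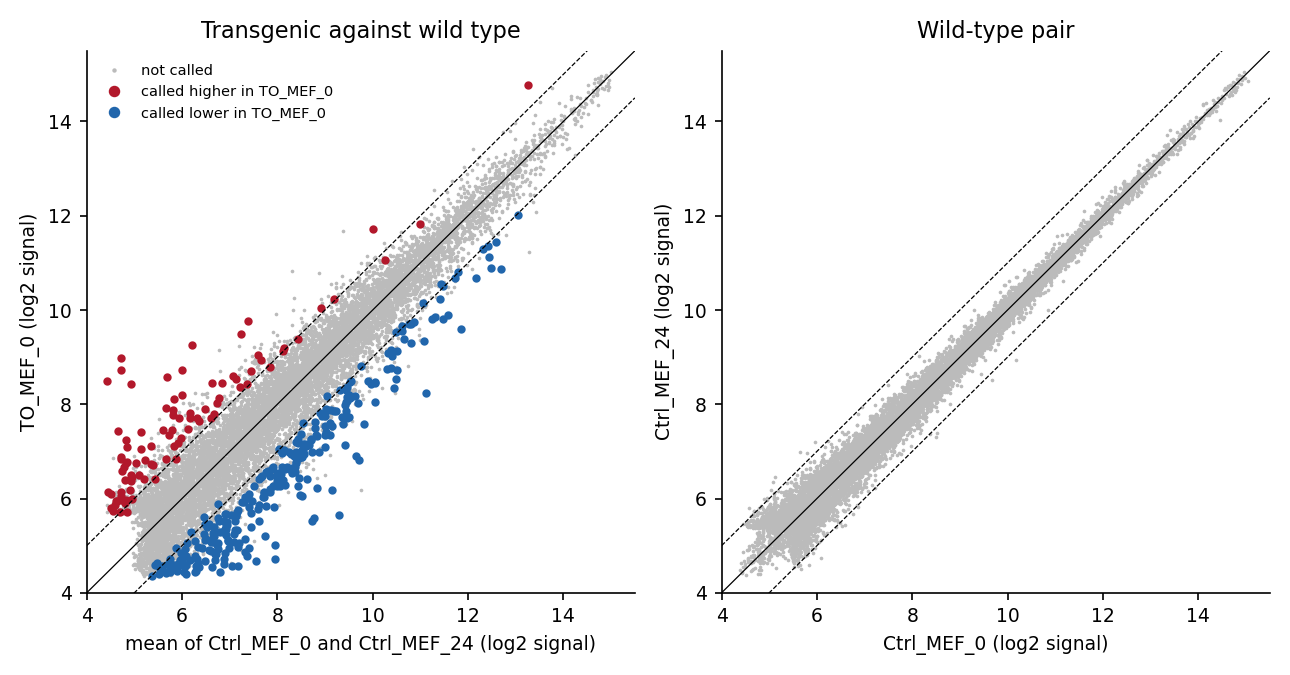
Log2 signal of the 11699 probes, 1 point each: left, TO_MEF_0 (vertical) against the mean of the 2 wild-type arrays (horizontal), with the 91 probes called higher in red and the 285 called lower in blue; right, Ctrl_MEF_24 (vertical) against Ctrl_MEF_0 (horizontal). The solid line marks equality and the dashed lines a 2-fold difference, which 837 probes exceed against both wild-type arrays and 37 exceed between the wild-type arrays.

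Called excesses in TO_MEF_0 are given in order of the smaller of their distances to the wild-type arrays, with undetected signals at their bound, so the mean difference need not follow the same order. The first after Pou5f1 encode a mixture of matrix, secreted, transcriptional and transport proteins. Col15a1, a basement membrane collagen gene, read 9.26, against 6.44 and 6.01 (difference 3.03 ± 0.65, adjusted p = 0.0339). Serpina3n, a secreted protease inhibitor gene, read 8.58, against 5.78 and 5.57 (adjusted p = 0.0354). Both of these lost their call when either wild-type array was left out (adjusted p 0.11 to 0.172), and also without 1 of several arrays of the other lines. Paip1, whose product binds poly(A)-binding protein and promotes translation, read 8.72, against 5.75 and 6.27 (difference 2.71 ± 0.24, adjusted p = 0.000423). Msx1, a homeobox gene of limb and craniofacial mesenchyme, read 7.92, against 5.62 and 5.73 (difference 2.25 ± 0.21, adjusted p = 0.000425). For Paip1 and Msx1 the nearer wild-type array lay 2.45 and 2.19 away, and the wild-type arrays differed from each other by 0.52 and 0.11.

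The next genes in that order encode signalling and transport proteins, among others. The peptide hormone gene Cck read 8.11 on TO_MEF_0, against 5.93 and 5.75 (adjusted p = 0.00273), and Ssbp4, a single-stranded DNA-binding protein gene, 8.19, against 5.99 and 6.03 (adjusted p = 0.00106). Hey1, a repressor downstream of Notch, read 9.50, against 7.08 and 7.40 (adjusted p = 0.0213), and the hormone gene Erfe 7.88, against 5.72 and 5.89 (adjusted p = 0.0119). 3 further genes were not well above background in wild type. They were the anion transporter gene Slco4a1 (7.44, against 4.67 and 4.65, at least 4.05-fold), the membrane protein gene Tmem87a (7.42, against 5.19 and 5.10, at least 3.97-fold) and the acid-sensing channel gene Asic3 (7.25, against 5.15 and 4.52, at least 3.54-fold), with adjusted p of 0.0354, 0.000509 and 0.01. Calls for Paip1, Msx1, Cck, Ssbp4 and Tmem87a held with either wild-type array left out. Those for Hey1, Erfe and Slco4a1 were lost without either one (adjusted p 0.0611 to 0.155), and that for Asic3 without Ctrl_MEF_24 (0.0716).

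The largest deficits included neuronal, mitochondrial, immune and growth control genes. Stmn2, a microtubule-destabilising stathmin of growing neurons, read 5.65 below background on TO_MEF_0, against 9.26 and 9.35 (difference -3.65 ± 0.39, adjusted p = 0.000856), at least 12.3-fold lower. Cox6b2, an isoform of a cytochrome c oxidase subunit known from testis, read 5.59 below background, against 8.95 and 8.58 (at least 8.44-fold lower, adjusted p = 0.0095). The synaptic vesicle gene Svop read 4.71, against 8.0 and 7.90, at least 4.79-fold lower. Cd55, which shields cells from complement, read 5.01, against 8.01 and 7.89, at least 4.81-fold lower (adjusted p = 0.00478). Cpq, a carboxypeptidase gene, read 6.41, against 8.58 and 8.68, and Slc27a3, of the fatty acid transport family, 7.59, against 9.93 and 9.69. Ercc5, a nucleotide excision repair endonuclease gene, read 8.34, against 10.49 and 10.41, and Ccng2, an atypical cyclin gene, 6.22, against 8.74 and 8.91. Adjusted p of Svop, Cpq, Slc27a3, Ercc5 and Ccng2 lay between 0.00376 and 0.0199. Calls for Stmn2, Cd55, Slc27a3 and Ercc5 held with either wild-type array left out. Those for Svop, Cpq and Ccng2 did not (adjusted p 0.0556 to 0.112), and Cox6b2 lost its call without Ctrl_MEF_0 (0.0646).

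**Figure D2:**
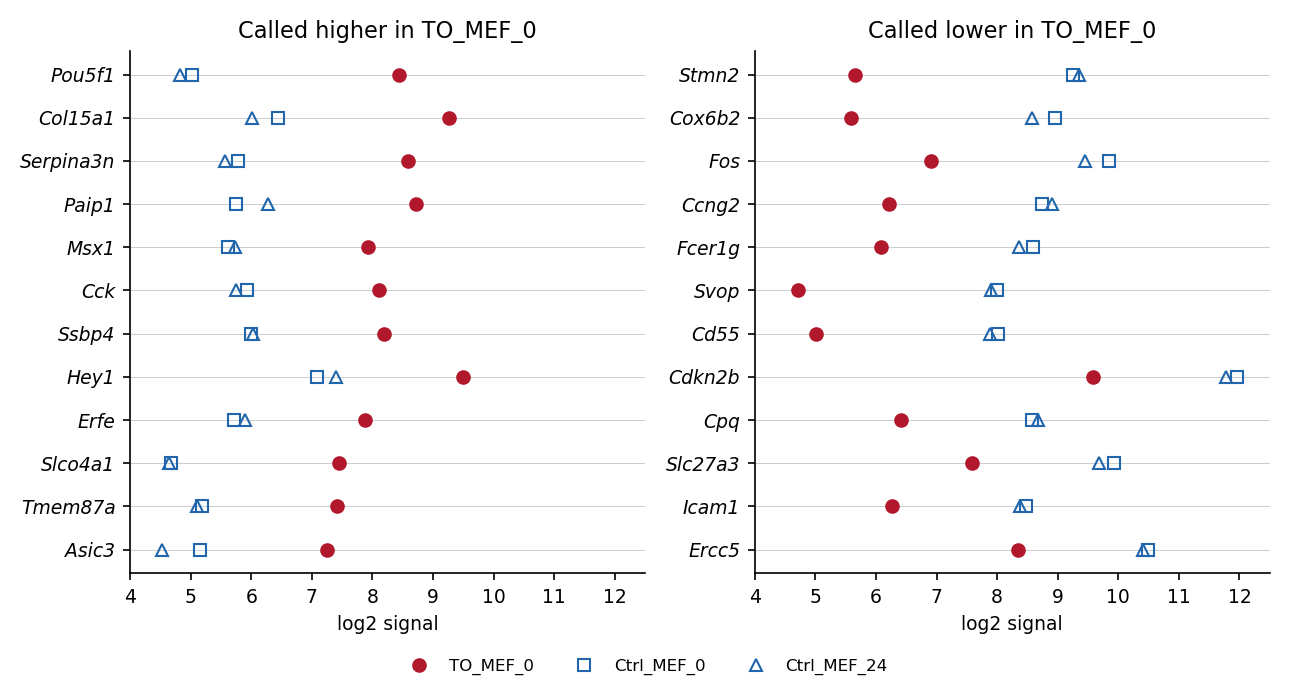
Log2 signal (horizontal) of the 12 genes per direction with the largest called difference, ordered from the top by the smaller of their distances to the wild-type arrays, with undetected signals at their bound; filled red circles are TO_MEF_0, open blue squares Ctrl_MEF_0 and open blue triangles Ctrl_MEF_24. In each of the 24 genes the TO_MEF_0 point lies apart from both wild-type points, which lie at most 0.63 from each other.

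Macrophage genes were lower in the transgenic culture. Of 14 macrophage and blood cell markers on the array, 11 were measured, and 7 were called lower and 0 higher, against 2.44% of all probes called lower. The list's median difference was -0.975, or -0.904 with undetected members at their bound, against 0.0107 over all probes. Adgre1, the F4/80 antigen of tissue macrophages, read 4.79 below background on TO_MEF_0, against 7.36 and 7.37 (difference -2.57 ± 0.19, adjusted p = 3e-04), at least 3.2-fold lower. Fcer1g, the signalling chain of Fc receptors, read 6.08, against 8.59 and 8.36 (difference -2.39 ± 0.28, adjusted p = 0.0014). The lysozyme gene Lyz2 read 8.48, against 10.04 on both wild-type arrays (difference -1.55, adjusted p = 0.0106), and Lyz1 10.68, against 12.15 and 12.17. Laptm5, a lysosomal membrane protein gene of blood cells, read 8.05, against 10.04 and 10.06 (difference -1.99, adjusted p = 0.0127). Lyz1 and Lyz2 are close paralogs whose probes may share transcripts.

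Other macrophage markers gave a mixed picture. Tyrobp, an adaptor of myeloid receptors, and the complement gene C1qa completed the 7, both below background on TO_MEF_0. C1qb, Cd14 and Ctss were lower by 0.90, 0.67 and 0.38 without a call, and Cd52 read 5.89, against 5.66 and 5.96. The pan-leukocyte gene Ptprc and the integrin gene Itgam were detected on none of the 3 arrays, and Cd68 and Csf1r are not among the symbols of the array. After the values were seen, Ms4a7 and C1qc were looked up as well. One Ms4a7 probe read 5.06, against 7.25 and 7.15 (adjusted p = 0.000425), with its other probe undetected on the 3 arrays, and C1qc read 5.82, against 7.83 and 8.03 (adjusted p = 0.0095). The summed normalised intensity of the 11 markers was 2650 on TO_MEF_0, against 7668 and 7650. In bulk RNA fewer macrophages and less of these transcripts per cell cannot be told apart. When either wild-type array was left out, 2 of the 7 were still called, Adgre1 and Fcer1g. In NSC the list's median difference was 0.0482 with 0 called, and TO_BMC_0, from bone marrow, read 12.39 for Adgre1.

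Cytokine and NF-kB target genes showed 4 lower calls and 0 higher among 22 measured, against 2.44% and 0.778% of all probes. The median was -0.144, or -0.0119 with undetected members at their bound. With detection required on all 3 arrays 1 of 16 was called lower, against 156 of 9683 probes. Without TO_MEF_6 3 were called higher and 4 lower, against 119 and 342 of all 11699 probes. The adhesion gene Icam1 read 6.27 on TO_MEF_0, against 8.48 and 8.37 (difference -2.15 ± 0.23, adjusted p = 0.000832). Tnfaip3, an inhibitor of NF-kB signalling, and the chemokine genes Ccl5 and Cxcl5 were below background on TO_MEF_0 and between 5.56 and 6.17 in wild type, with adjusted p of 0.0106, 0.0206 and 0.027. Ccl5 was at least 1.29-fold lower and Cxcl5 at least 1.02-fold, and no fold is given for Tnfaip3. The call for Icam1 held with either wild-type array left out and the other 3 did not (adjusted p 0.0611 to 0.166). The NF-kB subunit gene Relb read 7.31, against 6.14 and 6.16 (adjusted p = 0.0541). Cxcl12, a chemokine gene of stromal cells, read 12.77, against 12.74 and 12.63. Macrophages express several of these genes, and the macrophage list moved with them (median -0.975, 7 of 11 called lower); its part in the result was not tested.

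Several cyclin kinase inhibitor genes and targets of p53 were lower. Their list had 25 measured members, of which 22 read lower, against 50.7% of all genes measured, and the median was -0.492. Lower calls numbered 7 and higher calls 0, against 2.44% and 0.778% of all probes. The list also holds the D-type cyclin genes Ccnd1, Ccnd2 and Ccnd3, which promote the cell cycle and are among the 22, with differences of -0.58, -0.47 and -0.32 without a call. Cdkn2b, which encodes the CDK4/6 inhibitor p15, read 9.59 on TO_MEF_0, against 11.96 and 11.77 (difference -2.28 ± 0.31, adjusted p = 0.00376). Cdkn2a, which encodes p16 and p19Arf, read 8.46, against 9.94 and 10.13 (difference -1.58 ± 0.20, adjusted p = 0.00273). The p53 targets Pmaip1 (6.34, against 8.05 and 8.16), Mdm2 (11.36, against 12.54 and 12.31) and Zmat3 (10.50, against 11.49 and 11.45) were called lower as well (adjusted p 0.00659 to 0.0244), as were Ccng1 and Ei24. Cdkn1a, the p21 gene, read 12.07, against 13.56 and 13.30, without a call (adjusted p = 0.0985). Without Ctrl_MEF_0 3 of the 7 remained called, and without Ctrl_MEF_24 2, Cdkn2a and Cdkn2b being called both times. In NSC Cdkn2b was lower too (difference -1.53, adjusted p = 0.0267), whereas Cdkn2a was higher in the transgenic line (1.02, adjusted p = 0.0226).

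DNA replication and mitosis genes stood higher as groups without single calls. Of 20 replication genes measured, 19 were higher on TO_MEF_0, 8 of them at least 2-fold above both wild-type arrays (against 2.65% of all probes), and the median difference was 0.999. None was called, and 3 had an unadjusted p under 0.05. The raw intensities of the 20 summed to 19092 on TO_MEF_0, the dimmer array, against 18210 and 19095, and the normalised ones to 26166, against 13925 and 15339. The cyclin gene Ccne2 read 7.84, against 5.82 and 6.06 (difference 1.90 ± 0.73, adjusted p = 0.242). The replicative helicase subunit genes Mcm7 and Mcm3 read 8.02 and 8.23 on TO_MEF_0, against 6.25 and 6.38 on Ctrl_MEF_0 and 6.59 and 6.67 on Ctrl_MEF_24. Fen1, a flap endonuclease gene, read 10.96, against 9.81 and 9.97. Pcna, the sliding clamp gene, was the exception, with 5.73, against 7.14 and 6.94. Of 13 mitosis genes, 12 were higher, with a median of 0.844 and 0 called, such as the checkpoint kinase gene Bub1b (8.26, against 7.0 and 7.04) and the topoisomerase gene Top2a (10.17, against 8.86 and 9.38). The error of these genes holds the spread of the NSC and BMC time courses. In a fit of the 3 MEF arrays alone 13 replication genes were called higher, 1 lower, and 8 mitosis genes higher. Of all 11699 probes 879 were called higher and 1138 lower in that fit, whose spread comes from the wild-type pair. With TO_MEF_0 and the 4 wild-type arrays the list counts were 9, 1 and 1, against 508 higher and 727 lower of all probes.

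**Figure D3:**
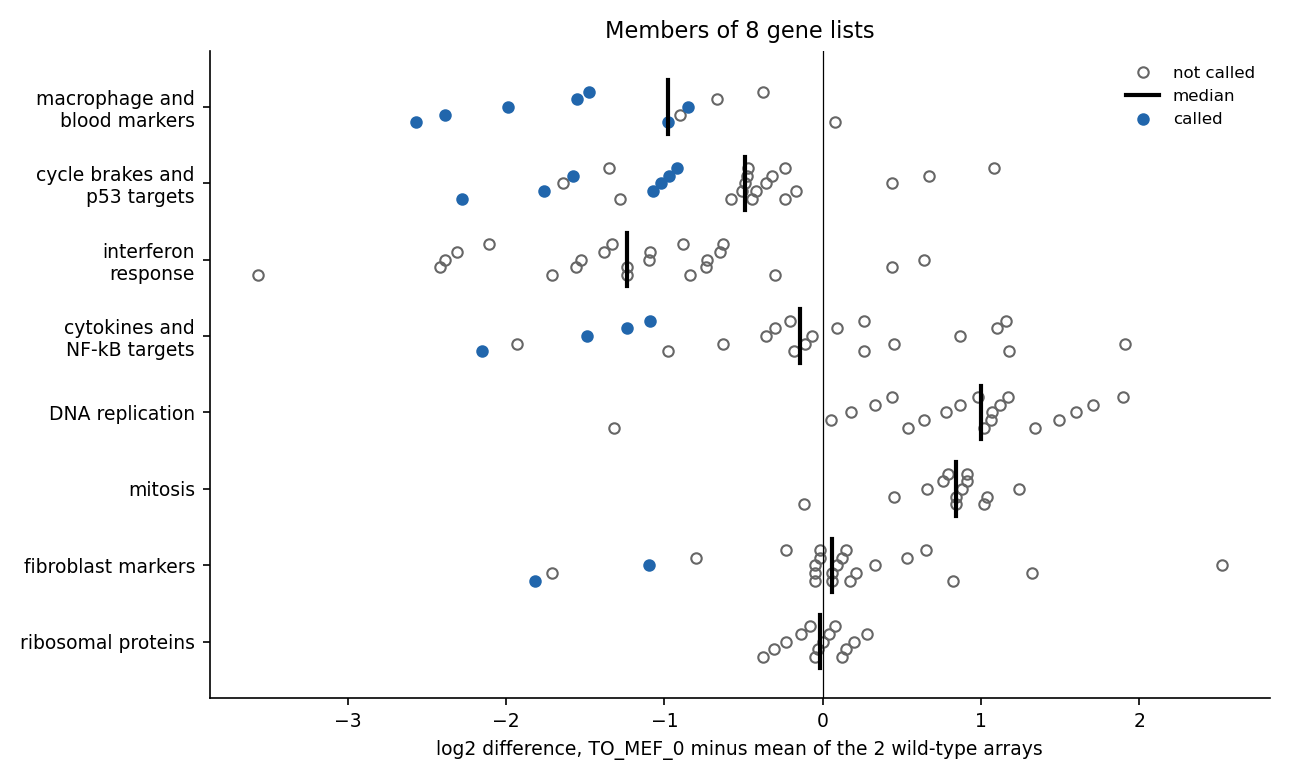
Log2 difference (horizontal, TO_MEF_0 minus the mean of the 2 wild-type arrays) of each measured member of 8 gene lists (rows); filled blue points were called and open points were not, and the black bar is the list's median. Macrophage and cycle brake members lie mostly below 0 with 7 called each, interferon members other than Irf1 and Ifi27 lie below 0 without a call (median -1.24), and replication members other than Pcna (median 0.999) and mitosis members other than Tpx2 (0.844) lie above 0.

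Interferon response genes, which cells switch on in antiviral defence, were lower as a group and also without single calls. Of 35 on the array, 23 were measured and 21 were lower, 11 of them at least 2-fold below both wild-type arrays, against 4.5% of all probes. The median difference was -1.24, or -0.843 with undetected members at their bound. None was called and 10 had an unadjusted p under 0.05. In the fit of the 3 MEF arrays 13 were called lower, against 1138 of all 11699 probes. That fit takes its spread from the wild-type pair. With TO_MEF_0 and the 4 wild-type arrays 13 were called lower, against 727 of all probes. With a linear trend for induction 18 were, against 1138, and with median scaling 1, against 718. Without TO_MEF_24 8 were called lower, against 359 of all probes, and without TO_MEF_6 1, against 342. The error here includes the TO_MEF time course, along which the levels of these genes differed: their median level was 6.44, 6.09, 6.90 and 8.68 at 0, 6, 12 and 24 h, beside 7.76 and 7.53 on the wild-type arrays. These 4 levels share arrays with the comparison and are given as levels only.

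The guanylate-binding GTPase gene Gbp2 had the smallest p, with 7.61, against 9.38 and 9.26 (difference -1.71 ± 0.50, adjusted p = 0.113). Ifit3, which encodes an RNA-sensing effector, read 6.18, against 9.84 and 9.67 (difference -3.57 ± 1.09, adjusted p = 0.126), and reached 9.66 in TO_MEF at 24 h. Irgm1, an immunity-related GTPase gene, read 12.16, against 12.86 and 12.76. Trim30a and Cmpk2 were below background on TO_MEF_0 (4.55 and 4.38). Isg15, a ubiquitin-like modifier gene, and Igtp, a GTPase gene, were chosen after their values were seen. Isg15 read 7.13, against 9.47 and 9.4, and Igtp 5.09 below background, against 7.54 and 7.48. Their adjusted p were 0.391 and 0.308. On TO_MEF_0 all 3 of Ifit3, Isg15 and Igtp lay below both wild-type arrays. Irf1 (10.66, against 10.13 and 9.89) and Ifi27 (11.54, against 11.11 and 11.10) were the 2 members that read higher. In NSC the median difference of the list was 0.225, with Ifi27 alone called, higher in the transgenic line.

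The promoters of these genes were examined for the interferon-stimulated response element, a short sequence known from promoters of such genes. Its core, a pair of GAAA blocks with 2 bases between them, was searched on both strands in the 250 bases before each start site (RefSeq, GRCm38.p6), with overlapping matches joined in the print. Of the 23 measured members 19 had a window and 11 held a match, against 3.46% of 27025 genes. A match describes these letters and does not show that the site is used. The windows of Isg15 (chr4:156200819-156201068, minus strand, 3 overlapping matches), Ifit3 (chr19:34583279-34583528, plus strand, 2 matches, both as the reverse complement) and Igtp (chr11:58199306-58199555, plus strand, 1 match) are shown 5′ to 3′ on the gene's strand, with the matches in capitals, because these genes were among those with the largest deficits and hold different numbers of matches.
Isg15: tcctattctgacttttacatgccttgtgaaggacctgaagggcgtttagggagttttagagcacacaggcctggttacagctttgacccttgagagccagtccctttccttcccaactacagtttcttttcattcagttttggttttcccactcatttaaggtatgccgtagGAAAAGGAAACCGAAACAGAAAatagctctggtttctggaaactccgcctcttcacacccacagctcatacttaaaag
Ifit3: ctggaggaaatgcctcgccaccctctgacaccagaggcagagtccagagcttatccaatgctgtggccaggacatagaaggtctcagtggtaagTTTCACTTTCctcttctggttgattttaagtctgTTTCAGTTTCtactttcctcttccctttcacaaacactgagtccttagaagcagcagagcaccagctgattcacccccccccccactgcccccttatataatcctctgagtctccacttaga
Igtp: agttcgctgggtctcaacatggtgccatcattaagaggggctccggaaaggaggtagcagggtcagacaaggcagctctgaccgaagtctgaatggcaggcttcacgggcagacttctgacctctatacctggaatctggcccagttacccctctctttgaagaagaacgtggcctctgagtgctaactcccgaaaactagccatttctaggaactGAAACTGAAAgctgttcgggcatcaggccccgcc

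Neural genes were lower in part. Of 8 measured neural markers Stmn2 was the only one called, against 2.44% of all probes called lower. Of the 8, 6 read lower and 2 higher, with a median of -0.464, or -0.145 with undetected members at their bound. With detection required on all 3 arrays 4 were measured, with a median of -0.0108 and 0 calls. Gap43, a growth cone protein gene, read 6.5 on TO_MEF_0, against 8.90 and 9.09 (adjusted p = 0.266), and stood at 11 in TO_MEF at 24 h. Nefm, a neurofilament gene, read 4.74 below background, against 6.17 and 6.21 (adjusted p = 0.411), with 9.58 at 24 h. Stmn2 stood at 7.60 at 24 h, still under the wild-type 9.26 and 9.35, and its change with induction was not called (adjusted p = 0.114). The neural stem cell gene Nes read 8.31, against 7.90 and 8.19. Snap25, Elavl3 and Gfap, defining genes of neurons and astrocytes, were detected on none of the 3 arrays. Stmn2, Gap43 and Nefm each read lower on the 0 h transgenic array, the baseline of the induction series, than on any later TO_MEF array. The comparison with wild type shares that array, so the later levels are given as levels only.

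**Figure D4:**
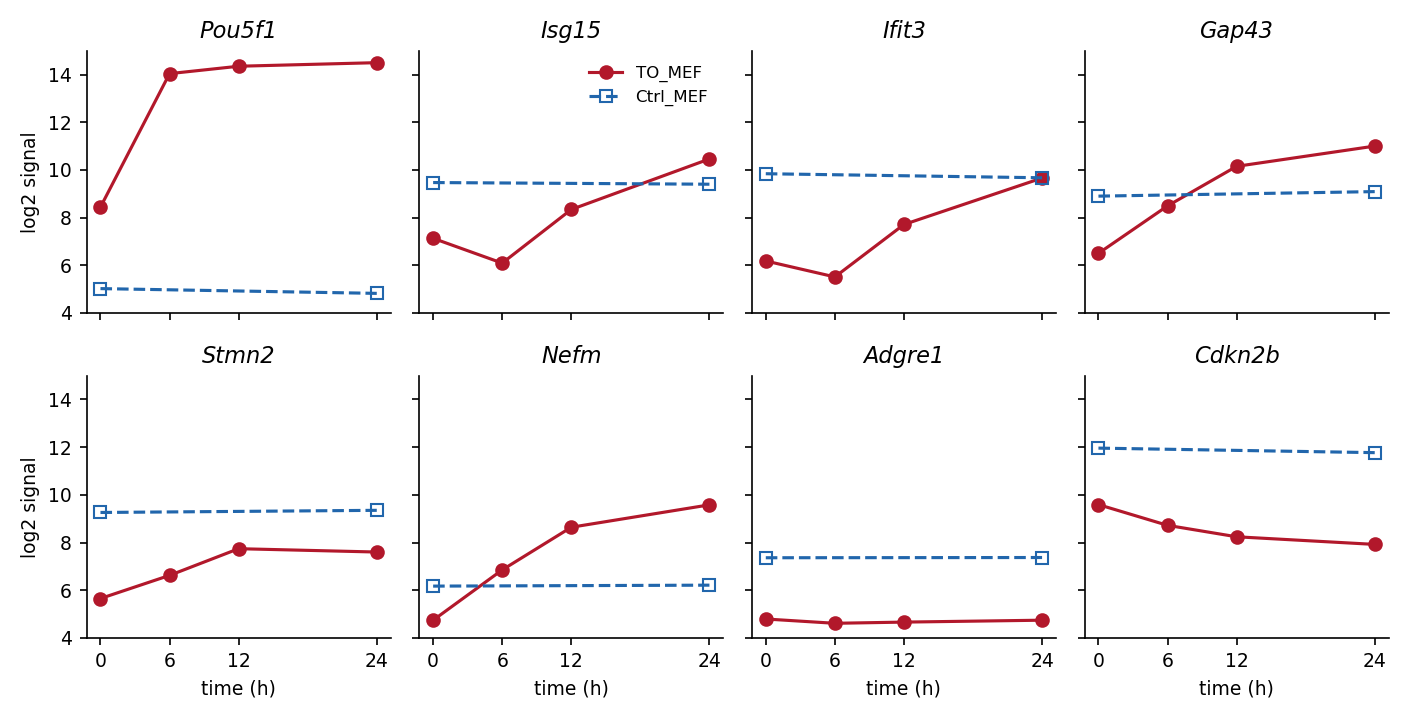
Log2 signal (vertical) of 8 genes against time in h (horizontal); filled red circles joined by solid lines are the TO_MEF arrays at 0, 6, 12 and 24 h, and open blue squares joined by dashed lines the wild-type arrays at 0 and 24 h, 1 array per point. Isg15, Gap43 and Nefm start below wild type and end above it, Ifit3 ends at 9.66 beside the wild-type 9.67, Stmn2, Adgre1 and Cdkn2b stay below it at each time, and Pou5f1 is above it from 0 h.

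Fibroblast marker genes were detected in all 3 cultures (22 of 23 on TO_MEF_0, against 22 and 23), with differences among matrix genes. All 23 fibroblast markers on the array were measured, the median difference was 0.0606 (-0.131 under median scaling), and 2 were called lower and 0 higher, against 2.44% and 0.778% of all probes. Without TO_MEF_24 3 were called lower and 2 higher, against 359 and 137 of all 11699 probes. Thy1 read 13.92, against 13.94 and 14.01, Vim 13.82, against 13.71 and 13.58, and Pdgfra 10.23, against 10.21 and 10.30. Col1a2, the second chain of type I collagen, read 10.88, against 12.70 on both wild-type arrays (difference -1.82, adjusted p = 0.00515), whereas Col1a1, its partner chain, read 13.65, against 13.35 and 13.72. Col3a1 read 9.71, against 10.85 and 10.76 (adjusted p = 0.0106). The call for Col1a2 held with either wild-type array left out, that for Col3a1 did not (adjusted p 0.0611 and 0.0722). With the authors' log2 values 0 of the 23 markers were called, and Col1a2 and Col3a1 both lost their call. Mfap5, a microfibril gene, read 10.83, against 8.40 and 8.22, without a call (adjusted p = 0.0764).

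Among 27 measured genes of matrix remodelling, Mmp3 was called higher and Vcan lower, 1 call in each direction beside 0.778% and 2.44% of all probes. With detection required on all 3 arrays 0 of 22 were called, and without TO_MEF_24 3 were called higher, against 137 of all 11699 probes. Mmp3, the stromelysin gene, was read by 3 probes, and all 3 were called. Its brightest probe read 7.10 on TO_MEF_0, against 4.69 and 5.0 below background (adjusted p = 0.0111), at least 3.19-fold higher. The protease genes Mmp9 (6.57, against 5.19 and 5.02) and Mmp10 (6.14, against 4.71 and 4.52) were also detected on TO_MEF_0 alone, without a call. Their raw intensities were alike, at 140, against 146 and 133, for Mmp9 and 125, against 127 and 112, for Mmp10. Vcan, a large proteoglycan gene, read 5.01 below background, against 6.77 and 6.69 (adjusted p = 0.0202), at least 2.06-fold lower. Both calls were lost with either wild-type array left out (adjusted p 0.0554 to 0.109). Contractile and serum response genes gave 0 calls among 17, with a median of -0.0401. Of 16 measured immediate early genes 13 read lower, against 50.7% of all genes measured, and their median was -0.257. Lower calls among the 16 numbered 1, against 2.44% of all probes. The immediate early gene Fos was called lower with 6.91, against 9.84 and 9.45 (adjusted p = 0.0202). Fos lost its call with either wild-type array left out (0.0739 and 0.117).

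Genes that record position in the embryo or fate in mesenchyme differed singly. Among 18 measured regional transcription factor genes, Msx1 was called higher and Foxd1 lower, against 0.778% and 2.44% of all probes (Foxd1 5.11 below background, against 6.37 and 6.18, adjusted p = 0.0341). Irx5, an Iroquois homeobox gene, read 7.31, against 8.64 and 8.58, without a call (adjusted p = 0.0753). Among 20 measured Hox genes, which set position along the body axis, Hoxb9 was called lower (5.93, against 7.14 and 7.39, adjusted p = 0.0264). The median Hox difference was -0.297, and 0 were called higher. Of 7 measured markers of cartilage, bone, tendon and fat, 2 read higher and 5 lower, and 1 was called higher, against 0.778% of all probes. Their median difference was -0.36, or -0.149 with undetected members at their bound. The 2 that read higher were Sp7 and Pparg. Sp7, the osteoblast factor osterix, read 6.59, against 4.79 and 4.69 below background (adjusted p = 0.0111, at least 2.24-fold), and stood at 4.46 in TO_MEF at 24 h. The fat cell regulator Pparg read 7.77, against 5.94 and 6.19 (adjusted p = 0.112). Of these calls only that for Msx1 held with either wild-type array left out (Foxd1 0.111 and 0.181, Hoxb9 0.0817 and 0.155, Sp7 0.0598 and 0.072).

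Of genes that can separate lines by sex or strain, 4 sex-linked genes and Glo1 were measured. All 4 sex-linked genes read lower, with a median of -0.593, or -0.395 with undetected members at their bound. Of the 4, 1 was called lower, against 2.44% of all probes. Xist, the RNA that coats the inactive X chromosome, read 6.14 on TO_MEF_0, against 7.46 and 8.01 (difference -1.59 ± 0.27, adjusted p = 0.0111, and 0.0739 without Ctrl_MEF_24). The Y-linked gene Eif2s3y read 8.44, against 8.70 and 8.71, and was detected on all 3 arrays. Kdm5d (5.64, against 6.31 and 6.13) and Uty (5.23, against 5.82 and 5.85), also Y-linked, were below background on TO_MEF_0, and neither was called. Glo1, whose copy number differs between inbred strains, read 11.33, against 11.12 and 11.18 (adjusted p = 0.805). The 3 probes of Nnt, which carries a deletion in some C57BL/6 substrains, were detected on none of the 17 arrays and thus tell nothing about strain. Of 15 imprinted genes measured 13 were lower, against 50.7% of all genes measured, and 0 were called. Igf2r had the smallest p (9.71, against 10.62 and 10.60, adjusted p = 0.0518). Whether leak of the promoter, origin of the line or state of the culture lies behind any difference reported here was not tested, and with 1 line and 1 array these cannot be told apart.

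The Actb probes disagreed with each other, a pattern chosen after the values were seen. A pair of probes was below background in both wild-type arrays and bright on TO_MEF_0. The first read 8.99, against 4.66 and 4.76 (difference 4.28 ± 0.58, adjusted p = 0.00376), at least 11.8-fold higher, and the second 8.73, against 4.62 and 4.79 (adjusted p = 0.00325), at least 9.83-fold higher. A further probe read 14.78, against 13.17 and 13.33 (difference 1.53, adjusted p = 0.0109). The other two read 14.13, against 13.40 and 13.39 (adjusted p = 0.424), and 14.82, against 14.59 and 14.69 (adjusted p = 0.897), and were not called. The dim pair also read 7.69 to 8.56 on the later TO_MEF arrays and 4.71 to 6.19 on TO_NSC_0, the wild-type NSC arrays, TO_BMC_0 and ESC. The probes of Gapdh, another common control gene, differed by -0.25 and -0.10 without a call, and the 14 ribosomal protein genes had a median of -0.012 and 0 calls.

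**Figure D5:**
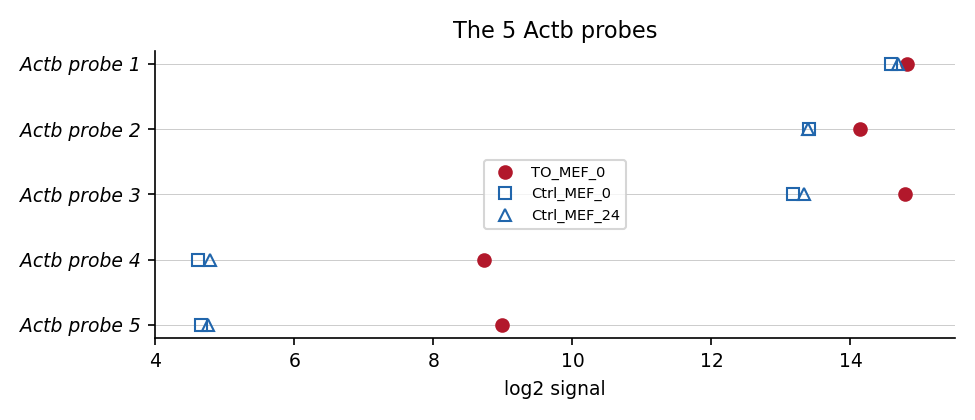
Log2 signal (horizontal) of the 5 Actb probes (rows, ordered from the top by wild-type level); filled red circles are TO_MEF_0, open blue squares Ctrl_MEF_0 and open blue triangles Ctrl_MEF_24. The dimmest pair separates by 4.28 and 4.02 log2 units while the brightest differs by 0.17.

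Probes of 1 gene differed elsewhere too. Of the 376 called probes, 132 had another probe of the same gene among the 11699. For 30 of these another probe was called in the same direction, and for 28 every other probe had the opposite sign. For 79, these 28 included, no other probe differed in the called direction by 0.5 times as much or more. The called probes were chosen for their difference, so a smaller one in another probe is partly set by that choice. A call by a single probe thus describes that probe and need not hold for others of its gene. Why such probes differed was not tested. Pou5f1, Adgre1, Lyz2, Mmp3, Mdm2 and Pmaip1 were each called by more than 1 probe.

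The NSC line offers the same contrast on other arrays. There 313 probes were called between the lines, 192 of them among the 11699. Calls in both cell types numbered 16, and 10 of the 16 had the same direction. They were 4.26% of the MEF calls, beside the 192 of all 11699 probes called in NSC. They were 8.33% of the NSC calls among these probes, against 3.21% of all 11699 probes called in MEF. The fits share 1 estimate of the spread. The difference between the contrasts was itself called for 126 of the 376 MEF calls, among them Pou5f1, Paip1, Msx1, Stmn2, Fcer1g and Icam1. The 376 probes were chosen for their difference in MEF, so a gap to NSC is partly set by that choice. How many of all 11699 probes had such a gap called was not counted. Serpina3n was called in both with opposite directions: it was 2.90 higher in transgenic MEF, while in NSC TO_NSC_0 read 4.76, against 6.83 and 8.97 in wild-type NSC (difference -3.14, adjusted p = 0.026).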

How the data were processed

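Each of the 17 samples was read once. The deposited table holds probe intensity on a linear scale, not normalised, with a detection p-value per probe and array, as exported by the authors. The authors also deposited a series matrix of log2 values. BeadStudio 3.2, lumi and RMA are named in the submitters' processing notes, and their order and settings are not given in the sources used here. Symbols came from the platform annotation (23978 probes with 1 symbol, 1719 with none), and 0 array columns were left unassigned.

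Intensities were background-corrected in limma 3.58.1 (R 4.3.3; normexp from detection p-values, offset 16), quantile-normalised over the 17 arrays and taken to log2. The 16 somatic arrays were fitted with an intercept for each of 5 lines and an induction step at 6, 12 and 24 h per transgenic cell type (8 residual and 3.6 prior degrees of freedom). The transgenic MEF intercept rests on TO_MEF_0 alone, which is assumed to vary like the other arrays. Tests were two-sided and moderated, with Benjamini-Hochberg adjustment over the 15543 probes detected on any array and a threshold of 0.05. The fit was tested on simulated data first. The number of arrays limits the precision. A gene was read by its brightest probe over the 3 arrays.

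The genes named were Pou5f1, sex-linked genes, Nnt and Glo1, the 12 genes per direction with the largest called difference from both wild-type arrays, and up to 5 members of smallest p from each of 29 lists. Other genes named were chosen after their values were seen. The members and lists were chosen with earlier results of these data known. Alternatives covered background, offset, scaling, the authors' values, detection filter, arrays in the fit, induction term and leaving out each array.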

Additional observations from a re-analysis of the deposited data

Results flagged for a closer look

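For 16 of the 24 genes with the largest called differences, the contrast of transgenic against wild-type cells differed between MEF and NSC by a test of the difference itself (limma, adjusted p 0.000793 to 0.0454). The difference, MEF minus NSC on the log2 scale, was 3.24 for Pou5f1, 3.40 for Paip1, 1.77 for Msx1, 2.15 for Cck, 2.12 for Ssbp4, 3.63 for Hey1 and 1.60 for Tmem87a. It was 6.04 for Serpina3n, which differed by 2.90 in MEF and by -3.14 in NSC. On the other side it was -3.99 for Stmn2, -4.02 for Cox6b2, -2.41 for Fcer1g, -2.85 for Cd55, -3.68 for Cpq, -2.22 for Slc27a3, -1.89 for Icam1 and -2.03 for Ercc5. These genes were chosen for a large difference in MEF, so a gap to NSC is partly set by that choice. The share of all 11699 probes with such a gap called was not counted. No group held the 4 samples needed to look for a single outlying array.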

How the results depend on the processing

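No paired analysis was possible because each group has 1 array and all carry the replicate number 1. The main count of 376 called probes became 214 with the authors' log2 values, 196 with probes detected on all 3 arrays, 773 with median scaling, 1831 with the 3 MEF arrays normalised and fitted alone, 2017 with these in the fit only, 1235 with TO_MEF_0 and the 4 wild-type arrays, and 2067 with a linear trend. It was 76 to 566 with 1 array left out. The higher share of calls was 24.2 percent, and 7.12 percent with median scaling, 42.5, 43.6 and 41.1 percent in the 3 smaller sets of arrays, and 44.9 percent with the trend. The 837 probes 2-fold from both wild-type arrays became 208 without background correction, 433 with an offset of 50, 1446 with the authors' values and 540 with detection on all 3 arrays, and 1198 to 1218 against a single wild-type array. The 37 between the wild-type arrays became 1, 3, 418 and 13 in the same order, and 71 with median scaling. The 126 calls that differed from NSC became 60 with the authors' values, 321 with median scaling, 59 with detection on all 3 arrays, 788 with the trend and 34 to 210 with 1 array left out.

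The Pou5f1 difference of 3.52 was 1.75 without background correction, 2.57 with an offset of 50, 4.65 with the authors' values, 3.19 with median scaling and 3.43 to 3.62 with 1 array left out, and was called in each. With the trend it was 5.73 (adjusted p = 0.0642), since the intercept then comes from 4 arrays. The replication median was 0.641 with median scaling and 0.906 to 1.00 with 1 array left out. The interferon median was -0.633 without background correction, -0.836 with an offset of 50, -1.70 with the authors' values, -1.57 with the trend, and -1.28 to -0.968 with 1 array left out. The macrophage median was -0.514, -1.60 and -1.26 without background correction, with the authors' values and with median scaling, -1.52 with detection on all 3 arrays, and -1 to -0.96 with 1 array left out. The cycle brake median was -0.551 to -0.477 with 1 array left out. The epithelial median turned to -0.00193 with median scaling and the muscle median to -0.225 with detection on all 3 arrays. Of 91 genes followed, 50 were called and 0 turned direction under any alternative. The 91 were chosen for calls or large differences on these arrays, which the alternatives reuse, so a kept direction is partly set by that choice. Of the 50, 31 lost their call without Ctrl_MEF_0 and 33 without Ctrl_MEF_24, and 16 kept it with every array left out in turn. The 9 lost also without another array were Col15a1, Serpina3n, Slco4a1, Klf4, Dnmt3l, Foxd1, Ccng1, Ei24 and C1qa. With the authors' values 18 of the 50 lost their call. Under every alternative other than leaving out an array, 24 of the 50 kept it. Signals near background limit every fold given as at least N. The cause of these shifts was not tested.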

Other observations

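Amino acid supply genes driven by Atf4 stood higher in part, with 15 of 23 measured above wild type and 0 called. Over all 8159 genes measured, 4022 read above wild type. At least 2-fold above both wild-type arrays were 3 of the 23, against 2.65% of all probes. Phgdh, the first enzyme of serine synthesis, read 11.10 on TO_MEF_0, against 9.99 and 10.04 (adjusted p = 0.108), and the mitochondrial serine enzyme gene Shmt2 10.01, against 8.62 and 8.49 (adjusted p = 0.281). Of 17 cholesterol synthesis genes 13 read higher and 0 were called, and the list's median was 0.37, against -0.00738 over all genes measured. Of 14 genes of class I antigen presentation 12 read lower, against 50.7% of all genes measured, and 0 were called. Their median was -0.346, or -0.0367 with undetected members at their bound, and 9 of the 14 were detected on TO_MEF_0. Among them B2m read 12.78, against 13.25 and 13.20 (adjusted p = 0.486).

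The BMP and Wnt list of 19 measured genes had 0 calls and a median of -0.0482. Dkk3, a secreted protein of the Dickkopf family, read 10.95, against 11.89 and 12.07 (adjusted p = 0.0741), and in NSC the difference was -2.82 (adjusted p = 0.000134). The contrasts of Dkk3 in MEF and NSC differed by 1.79 ± 0.38 (adjusted p = 0.0362). Irx5 differed by -1.30 in MEF without a call and by 2.77 in NSC (adjusted p = 0.000815), and these contrasts differed by -4.07 ± 0.48 (adjusted p = 0.00172). The endothelial list had 3 measured members and 0 calls. The epithelial list had 5 and 0, and the muscle list 4 and 0.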
